A study of Mus musculus with 12 samples.

Results

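The 10 lipid-associated macrophage genes described here are *Trem2*, *Clec4d*, *Gpnmb*, *Apoe*, *Pltp*, *Pla2g7*, *Cd5l*, *Mmp12*, *Lgals3*, and *Spp1*, out of 49585 genes counted in the adrenal cortex of mice. They were named as a list, and several of them were selected on their lower level in mice on a high-fat diet (HFD) than in mice on a low-fat diet (LFD), so that their difference between these diets is given as a description, without a test. All 10 were found in the count files by their gene identifiers, and all 10 had enough reads to be tested in every comparison.

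Lipid-associated macrophages are macrophages that take up and break down lipid from dying cells and lipoproteins, and they are known from adipose tissue, fatty liver, and atherosclerotic plaques. TREM2, a receptor on their surface that binds lipids and lipoproteins, is required for much of their gene program, which comprises lysosomal, lipid-binding, and secreted matrix-degrading proteins. The adrenal cortex stores cholesteryl esters for steroid synthesis and contains macrophages between its steroidogenic cells. Several of the 10 genes are not made by macrophages alone. Steroidogenic cells of the mouse adrenal cortex also make apolipoprotein E, and galectin-3 and osteopontin are made by several cell types.

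The study compared 4 mice on a LFD, 4 mice on a HFD, and 4 mice on a HFD that held icosapent ethyl, an ethyl ester of the omega-3 fatty acid eicosapentaenoic acid. Per the methods of the study, male C57BL/6J mice of 6 weeks received either diet for 20 weeks, with 10% (LFD) or 60% (HFD) of energy from fat, and icosapent ethyl was mixed into the HFD for the last 10 weeks. The labels call the LFD mice normal diet and number them 2, 5, 6, and 7, whereas HFD and icosapent ethyl–treated mice are numbered 1 to 4. The labels also give a *Fads2*-/- genotype for all 12 mice, the methods describe these mice as wild-type, and *Fads2* was measured at 455 to 2199.9 CPM (counts scaled to library size and composition) in every mouse. The study describes its *Fads2* knockout mice as deficient in the transcript, and the genotype given in the labels was not resolved here.

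Levels of 9 of the 10 genes did not overlap between LFD and HFD mice and were lower in each HFD mouse, and *Spp1* was the exception. Of all genes tested, 5.88% did the same, and several of the 10 were selected on this contrast. *Cd5l* was 13.9-fold lower in HFD mice, *Gpnmb* 5.26-fold, *Mmp12* 3.90-fold, and *Clec4d* 3.41-fold, as the fitted ratios. In icosapent ethyl–treated mice, 7 of the 10 genes stayed below the lowest LFD mouse, as did 3.97% of all genes tested. The LFD mice are those of the contrast that several of the 10 were selected on, so this count is not independent of the choice. With edgeR, none of the 10 passed the adjusted test against LFD or HFD mice, and neither did any other gene tested (0%). DESeq2 called 6 of the 10 lower against LFD mice, with 1.29% of all genes called lower, and none of the 10 against HFD mice. Icosapent ethyl–treated mouse 2 had the highest level of its group for 10 of 10 genes.

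The 250 bases before the annotated start of transcription are shown for *Cd5l*, which differed the most between LFD and HFD mice, for *Mmp12* and *Pltp*, a secreted protease and a lipid carrier with a like direction, and for *Spp1*, which differed the least. They are taken from RefSeq (GRCm38.p6), read 5′ to 3′ on the strand of the gene, and bases inside an annotated exon were removed (16 for *Mmp12* and 3 for *Pltp*). All 10 genes matched the RefSeq table, with 14 promoters in all. Capitals mark matches, on either strand, to CACGTG (the E-box of the MiT/TFE lysosomal factors), TGACTCA (AP-1), GAGGAAGT (PU.1 and other ETS factors), TTGCNNAA (C/EBP, N any base), TATAAA (the TATA box), or the DR4 repeat of nuclear receptors such as LXR.

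*Cd5l*, chr3:87357631-87357880, plus strand:
Cd5l: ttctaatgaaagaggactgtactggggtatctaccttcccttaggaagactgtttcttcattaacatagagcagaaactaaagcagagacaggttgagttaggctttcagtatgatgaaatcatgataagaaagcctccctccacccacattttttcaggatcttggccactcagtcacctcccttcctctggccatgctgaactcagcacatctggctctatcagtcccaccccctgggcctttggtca
*Mmp12*, chr9:7344147-7344380, plus strand:
Mmp12: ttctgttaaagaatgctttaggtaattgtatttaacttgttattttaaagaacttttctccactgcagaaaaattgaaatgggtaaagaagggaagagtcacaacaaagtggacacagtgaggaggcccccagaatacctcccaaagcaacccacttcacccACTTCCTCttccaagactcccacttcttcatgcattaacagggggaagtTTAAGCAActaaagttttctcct
*Pltp*, chr2:164857712-164857958, minus strand:
Pltp: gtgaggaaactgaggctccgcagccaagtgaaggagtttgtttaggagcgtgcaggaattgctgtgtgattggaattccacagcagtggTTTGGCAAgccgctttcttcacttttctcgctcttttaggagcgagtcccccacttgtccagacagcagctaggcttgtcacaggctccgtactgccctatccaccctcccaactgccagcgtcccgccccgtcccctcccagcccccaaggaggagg
*Spp1*, chr5:104434861-104435110, plus strand:
Spp1: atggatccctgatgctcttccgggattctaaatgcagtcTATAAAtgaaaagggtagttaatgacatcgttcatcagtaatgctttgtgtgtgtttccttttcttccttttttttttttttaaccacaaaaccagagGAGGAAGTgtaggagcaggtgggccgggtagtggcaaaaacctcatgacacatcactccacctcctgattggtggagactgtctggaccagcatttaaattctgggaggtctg

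GAGGAAGT was found in *Mmp12* (reverse strand, 88 to 81 bases before the start) and *Spp1* (forward strand, 113 to 106 bases before the start), and in 2.44% of all 32851 promoters of the table. TTGCNNAA, present in 9.56% of all promoters, was found in *Mmp12* (39 to 32 bases before the start), *Pltp* (161 to 154 bases before the start), and a second start of *Spp1*. TATAAA, in 12.4% of promoters, was found in *Spp1* (211 to 206 bases before the start) and a second start of *Apoe*, and TGACTCA, in 4.46%, in a second start of *Mmp12*. CACGTG (6.02% of promoters) and the DR4 repeat (0.0457%) were found in none of the 14 promoters. The absence and the share given for DR4 hold only for the pattern searched, a direct repeat with a 4-base spacer. The spacing of this pattern was not checked against the DR4 site that LXR binds. Whether the 14 promoters hold that site was therefore not tested. The searched motifs did not overlap each other in the printed windows, and the *Cd5l* window held none of them. A match is a stretch of letters and was not tested as a binding site.

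Each library was read as 1 mouse, with 34785979 to 67295963 counted reads and 20812 to 21634 genes with a count. The lowest chi-square per degree of freedom over the 66 pairs of libraries was 26.48, so no library was a copy of another. Markers of the adrenal cortex such as *Star* and *Cyp11a1* were abundant, with a summed level over 8 markers of 46960.4 to 72457 CPM in LFD mice and 59397 to 98168 CPM in HFD mice. Markers of chromaffin cells, the catecholamine cells of the medulla, were present in every mouse, so that the tissue was not cortex alone. In these bulk samples, fewer cells of a type and less RNA per cell cannot be told apart.

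Levels of the genes were compared with each other per kilobase of exon, as means over the 12 mice. The length was that of all annotated exons of a gene, merged over its transcripts. It was 1.599 kb for *Clec4d*, 4.946 kb for *Trem2*, 6.514 kb for *Gpnmb*, and 7.237 kb for *Mmp12*. Lengths of single transcripts were not tried, and the order holds only for the merged length. *Apoe* was the most abundant at 532 CPM per kilobase, above 99.6% of the 13460 genes with a mean of at least 1 CPM. *Lgals3* followed at 31.3 CPM per kilobase, and *Pltp*, *Pla2g7*, and *Spp1* lay between 10.5 and 13.7. *Gpnmb*, *Mmp12*, and *Cd5l* lay between 5.81 and 7.35 CPM per kilobase. The receptors *Trem2* (2.59) and *Clec4d* (2.07) were the lowest of the 10, and *Clec4d* lay above 28.1% of expressed genes.

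Of the receptors and membrane proteins, *Trem2* (ENSMUSG00000023992, chr17:48346401-48354147, GRCm38) encodes the lipid-sensing receptor that signals through the adaptor DAP12. In LFD mice 2, 5, 6, and 7, its level was 16.2, 21.6, 17.6, and 21.4 CPM. In HFD mice 1 to 4, it was 8.90, 7.004, 13.1, and 8.75 CPM. In icosapent ethyl–treated mice 1 to 4, it was 8.26, 14.6, 8.31, and 8.22 CPM. Both HFD groups lay below every LFD mouse, and 3 of the 4 icosapent ethyl–treated mice were nearly equal, with mouse 2 above them. The log2 fold change of HFD versus LFD mice was -1.02 ± 0.212 (SE), from group means of 19.2 ± 2.74 CPM and 9.45 ± 2.60 CPM (SD, n = 4 each).

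*Clec4d* (ENSMUSG00000030144, chr6:123262111-123275265), a C-type lectin receptor of myeloid cells that binds mycobacterial glycolipids and signals through the Fc receptor gamma chain, was measured at 5.80, 6.98, 4.69, and 5.81 CPM in the LFD mice. The HFD mice had 2.61, 0.914, 1.77, and 1.55 CPM. The icosapent ethyl–treated mice had 0.805, 4.24, 2.52, and 2.12 CPM, from the lowest value of the 12 mice in mouse 1 to a value close to the lowest LFD mouse in mouse 2. The log2 fold change of HFD versus LFD mice was -1.77 ± 0.305, on 30 to 323 reads per mouse over all groups. *Gpnmb* (ENSMUSG00000029816, chr6:49036546-49070929) encodes a transmembrane glycoprotein that is induced in macrophages with loaded lysosomes. Its level was 72.5, 133, 57.2, and 102 CPM in the LFD mice. The HFD mice had 39.4, 7.49, 15.2, and 7.27 CPM, and HFD mouse 1 stood above the other HFD mice. Among icosapent ethyl–treated mice it was 5.07, 92.2, 23.2, and 20.2 CPM, so that mouse 1 had the lowest value of all 12 mice and mouse 2 lay within the LFD range. The log2 fold change of HFD versus LFD mice was -2.40 ± 0.557, and the SD of the icosapent ethyl–treated mice (38.8 CPM) was larger than their mean (35.2 CPM).

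Among the proteins that carry or cleave lipids, *Apoe* (ENSMUSG00000002985, chr7:19696109-19699188, minus strand) encodes apolipoprotein E, a ligand of the LDL receptor family and an acceptor of cholesterol from macrophages. Its level was 1185, 1779, 1290.4, and 1935 CPM in LFD mice 2, 5, 6, and 7. HFD mice had 883, 722, 906, and 784 CPM. Icosapent ethyl–treated mice had 972, 1278, 1080.0, and 841 CPM, and mouse 2 exceeded the lowest LFD mouse. LFD mice 5 and 7 were higher than LFD mice 2 and 6, and the HFD mice were the narrowest group, with a mean of 824 ± 86.0 CPM against 1547 ± 366 CPM in LFD mice (SD, n = 4 each). The log2 fold change of HFD versus LFD mice was -0.91 ± 0.169.

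*Pltp* (ENSMUSG00000017754, chr2:164839518-164857711, minus strand), which encodes the phospholipid transfer protein that moves phospholipids between lipoproteins, was measured at 53.1, 60.5, 47.8, and 70.3 CPM in the LFD mice. HFD mice had 29.1, 23.6, 21.8, and 15.6 CPM, and icosapent ethyl–treated mice had 25.6, 31.6, 20.7, and 20.1 CPM. Every mouse on a HFD, with or without icosapent ethyl, lay below every LFD mouse, and the log2 fold change of HFD versus LFD mice was -1.37 ± 0.194. *Pla2g7* (ENSMUSG00000023913, chr17:43568098-43612201) encodes the lipoprotein-associated phospholipase that cleaves platelet-activating factor and oxidized phospholipids. LFD mice had 43.4, 50.6, 37.3, and 57.1 CPM. HFD mice had 26.5, 19.6, 30.2, and 23.1 CPM. Icosapent ethyl–treated mice had 21.0, 32.7, 31.2, and 26.3 CPM. The 3 groups had like relative spread for this gene (SD of 18.3%, 18.3%, and 19.0% of the mean), and the log2 fold change of HFD versus LFD mice was -0.92 ± 0.175.

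Among the other secreted proteins, *Cd5l* (ENSMUSG00000015854, chr3:87357881-87371073) encodes a scavenger protein of tissue macrophages that binds lipids and inhibits apoptosis. LFD mice had 17.7, 25.4, 26.8, and 51.3 CPM, with mouse 7 well above the others. HFD mice had 3.96, 0.895, 2.90, and 0.912 CPM, which rested on 40 to 184 reads per mouse. Icosapent ethyl–treated mice had 0.670, 7.59, 2.22, and 1.64 CPM. The highest of the 8 mice on a HFD, icosapent ethyl–treated mouse 2, was below the lowest LFD mouse, and the log2 fold change of HFD versus LFD mice was -3.80 ± 0.566. *Mmp12* (ENSMUSG00000049723, chr9:7344381-7369499), the macrophage elastase, was measured at 66.6, 106, 83.8, and 100.3 CPM in the LFD mice. HFD mice had 35.8, 18.5, 24.5, and 12.6 CPM, and icosapent ethyl–treated mice had 14.3, 55.6, 37.3, and 27.2 CPM. Both HFD groups lay below the LFD mice, with a log2 fold change of -1.96 ± 0.301 for HFD versus LFD mice.

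*Lgals3* (ENSMUSG00000050335, chr14:47367751-47386160) encodes galectin-3, a lectin that binds beta-galactosides and marks activated macrophages. LFD mice had 84.7, 106, 90.3, and 94.3 CPM and were the tightest LFD group among the 10 genes, with an SD of 9.57% of the mean. HFD mice had 46.7, 35.95, 39.6, and 26.8 CPM, and icosapent ethyl–treated mice had 32.1, 63.3, 39.7, and 38.6 CPM. No mouse on a HFD reached the LFD range, and the log2 fold change of HFD versus LFD mice was -1.33 ± 0.164. *Spp1* (ENSMUSG00000029304, chr5:104435118-104441050) encodes osteopontin, a ligand of CD44 and of integrins. LFD mice had 26.7, 18.6, 16.2, and 20.8 CPM. HFD mice had 13.7, 10.3, 21.5, and 18.8 CPM. Icosapent ethyl–treated mice had 10.1, 22.4, 13.7, and 14.4 CPM. The 3 groups overlapped for *Spp1*, and its log2 fold change of HFD versus LFD mice was -0.36 ± 0.252. A second gene, *Gm42793*, lies on the same strand over the first exons of *Spp1* (0 to 1 reads per mouse), and the union mode of counting assigns reads in a shared stretch to neither gene, so that the level of *Spp1* is uncertain.

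**Figure D1:**
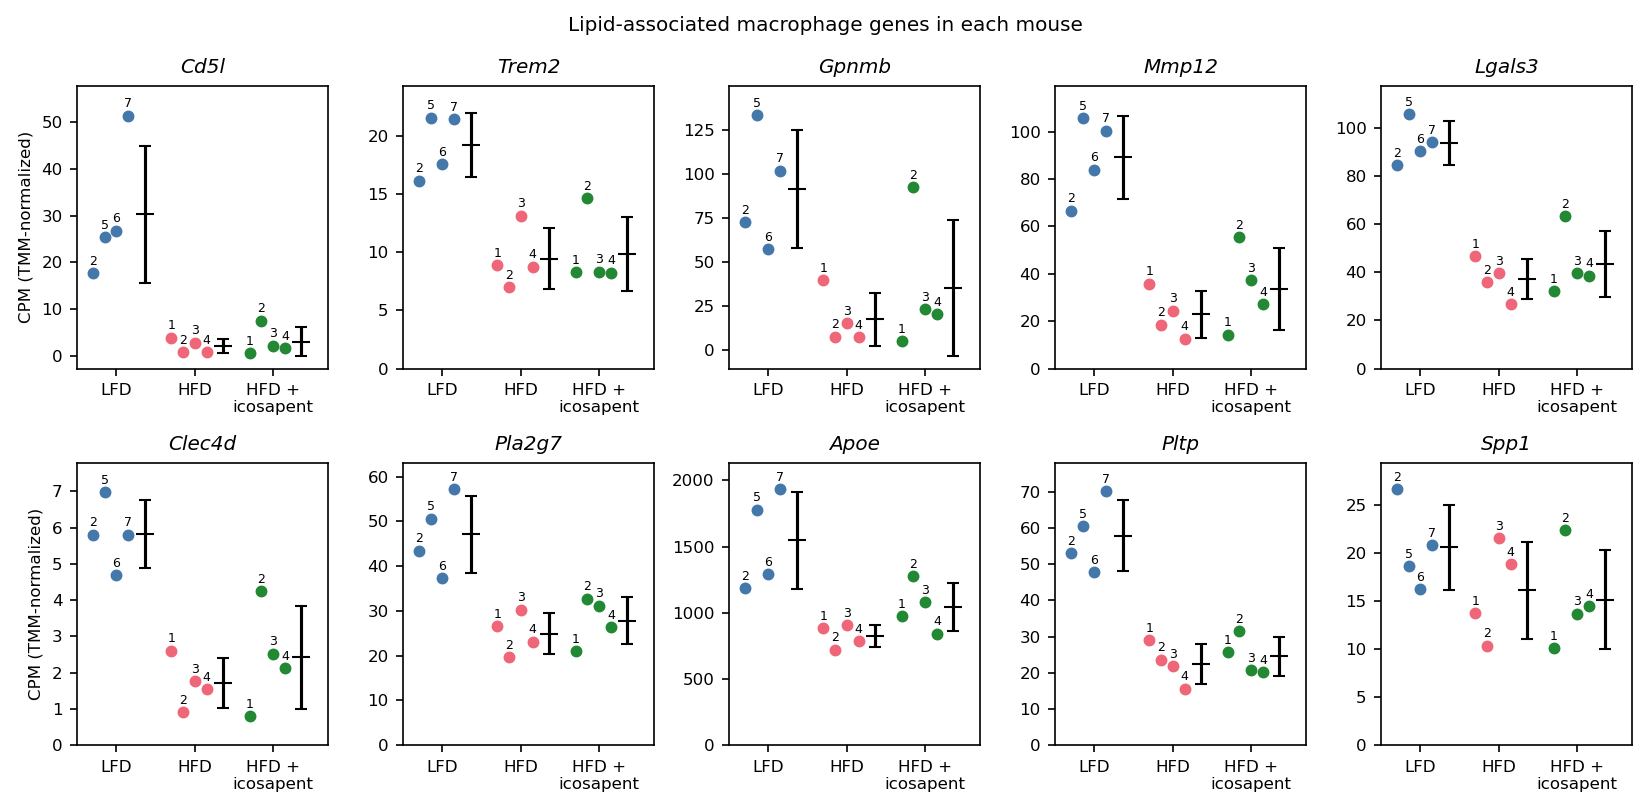
CPM (vertical axes, starting at or below 0) of the 10 genes in each mouse of the LFD, HFD, and HFD plus icosapent ethyl groups. Numbers give the mouse, and bars give the mean ± SD of 4 mice. HFD mice lie below all LFD mice for 9 genes, and icosapent ethyl–treated mouse 2 is the highest of its group in each panel.

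The first comparison asked how a HFD changed expression in the adrenal cortex, and it is the contrast that several of the genes were selected on. All 10 log2 fold changes were below 0, with a median of -1.35, against -0.0148 over all 15909 genes tested. The groups did not overlap, with HFD mice lower, for 9 of the 10 genes, and for 5.88% of all genes tested. Since the genes were selected on this contrast, the counts are a description. Their order from *Cd5l* (-3.80) to *Gpnmb* (-2.40), *Mmp12* (-1.96), *Clec4d* (-1.77), *Pltp* (-1.37), *Lgals3* (-1.33), *Trem2* (-1.02), *Pla2g7* (-0.92), *Apoe* (-0.91), and *Spp1* (-0.36) showed gaps smaller than both SEs for the neighbors *Mmp12* and *Clec4d*, *Pltp* and *Lgals3*, *Trem2* and *Pla2g7*, and *Pla2g7* and *Apoe*. When each mouse was left out in turn, the 10 log2 fold changes stayed below 0, and their median ranged from -1.48 to -1.21.

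The second comparison set icosapent ethyl–treated mice against LFD mice. Its treated mice were not used for the choice, but its LFD mice are those of the contrast the genes were selected on. Selection for higher levels in these LFD mice favors lower fold changes here. The p-values and counts of the 10 genes in this comparison are therefore not independent of the choice. All 10 genes were lower in the treated mice, and the median of their log2 fold changes was -1.17, against -0.00367 over 15935 genes tested. For *Cd5l* the log2 fold change was -3.33 ± 0.687, with group means of 3.03 ± 3.11 CPM and 30.3 ± 14.6 CPM (SD, n = 4 each). For *Pltp* it was -1.24 ± 0.177, for *Lgals3* -1.11 ± 0.197, for *Mmp12* -1.40 ± 0.361, and for *Trem2* -0.96 ± 0.220. No gene of the 10 passed an adjusted p of 0.05 (edgeR's quasi-likelihood test, adjusted by Benjamini-Hochberg over all genes), and neither did any of the 15935 genes (0%), whereas DESeq2 called 417 genes. The adjusted p of the 10 genes ranged from 0.153 for *Pltp* and *Lgals3* to 0.441 for *Spp1*.

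Without adjustment, 8 of the 10 genes were lower at a p below 0.05, all but *Gpnmb* and *Spp1*. Of all genes, most of which were not selected on the LFD mice, 6.67% were. The groups did not overlap for 7 of the 10 genes and for 3.97% of all genes, all in the lower direction, and *Gpnmb*, *Apoe*, and *Spp1* overlapped through icosapent ethyl–treated mouse 2. DESeq2, the tool of the study, called 6 of the 10 genes lower, with 1.29% of all genes called lower, and these were *Cd5l*, *Trem2*, *Mmp12*, *Lgals3*, *Pla2g7*, and *Pltp*. With DESeq2 the adjusted p was 2.85e-06 for *Pltp*, where the alternatives reached up to 0.432, and 0.000341 for *Lgals3*, where they also reached 0.432. Without icosapent ethyl–treated mouse 2, edgeR called 1 of the 10 genes, *Lgals3*, at a log2 fold change of -1.35 ± 0.123 and an adjusted p of 0.0386. *Lgals3* was the only gene called in that fit among all genes tested.

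The third comparison asked what icosapent ethyl changed on top of the HFD. Its HFD mice are those of the contrast the genes were selected on. Selection for lower levels in these HFD mice favors higher fold changes here. The values of the 10 genes in this comparison are therefore not independent of the choice. No gene of the 10, and none of 15913 genes (0%), passed an adjusted p of 0.05 with edgeR, DESeq2 called 7 genes and none of the 10, and every adjusted p of the 10 genes was 0.9997 with edgeR. The groups overlapped for all 10 genes, whereas they did not overlap, in either direction, for 1.09% of all genes. Fitted log2 fold changes were above 0 for 9 of the 10 genes and below 0 for *Spp1* (-0.090 ± 0.297), with a median of 0.28 against 0.00396 over all genes. *Apoe* was the gene of the 10 with an unadjusted p below 0.05, as were 1.39% of all genes, at a log2 fold change of 0.34 ± 0.142 and a 95% confidence interval of 0.016 to 0.66.

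Intervals were wide for the genes with the largest spread, from -0.89 to 2.94 for *Gpnmb* and -1.24 to 2.20 for *Cd5l*. They were narrower for *Pla2g7* (-0.26 to 0.58), *Pltp* (-0.36 to 0.60), *Trem2* (-0.55 to 0.67), *Lgals3* (-0.32 to 0.76), *Apoe* (0.016 to 0.66), and *Spp1* (-0.76 to 0.58). A difference of 1 log2 unit in either direction lay outside the interval of each of these genes. Without icosapent ethyl–treated mouse 2, 4 of the 10 log2 fold changes were above 0 and 6 below, with a median of -0.0243. In that fit *Gpnmb* moved from 1.03 to -0.0955 and *Cd5l* from 0.48 to -0.515. Leaving out HFD mouse 1 moved the same genes the other way, to 1.81 for *Gpnmb* and 0.932 for *Cd5l*.

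**Figure D2:**
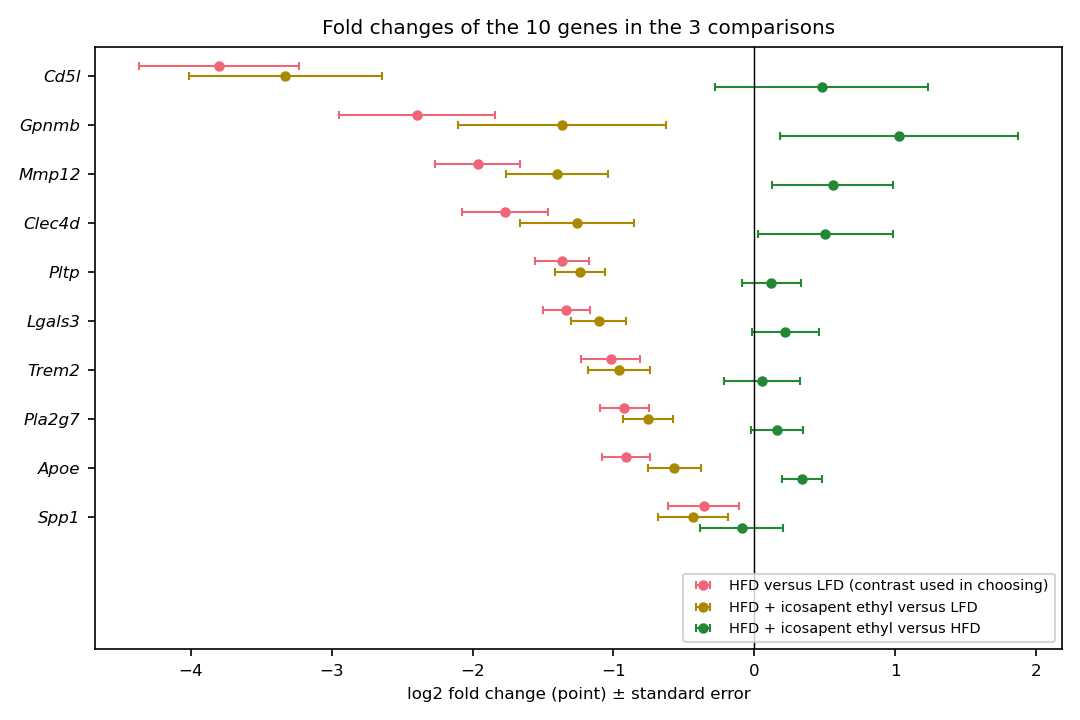
Log2 fold changes (horizontal axis, points) with standard errors (bars) of the 10 genes in 3 comparisons. HFD versus LFD is the contrast several genes were selected on, and the other comparisons share its LFD or its HFD mice. Points of icosapent ethyl–treated versus LFD mice lie left of 0 for 10 genes, and those of icosapent ethyl–treated versus HFD mice lie right of 0 for 9 genes.

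Levels also differed between mice of the same group, and the 10 genes tended to do so together. Icosapent ethyl–treated mouse 2 was the highest of its group for 10 of 10 genes, with a median deviation of 0.617 log2 units from the group mean, and mouse 1 was the lowest for 7 genes, with a median deviation of -0.455. Among HFD mice, mouse 1 was the highest for 6 genes and mouse 3 for 4, and mice 2 and 4 were the lowest for 6 and 4 genes. LFD mice 5 and 7 were the highest for 5 and 4 genes, with *Spp1* highest in mouse 2, and mice 2 and 6 were the lowest for 5 genes each. The deviations were widest for *Gpnmb*, *Cd5l*, and *Clec4d*.

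Icosapent ethyl–treated mouse 2 was also the library with the fewest reads (34785979) and had the lowest summed adrenal cortex markers of its group (61571 CPM). Its pan-macrophage markers (12 genes, 404 CPM in sum) lay within the 386 to 406 CPM of its group, and its chromaffin markers (8329 CPM) within 4396 to 8587 CPM. The part of these measures in the high values of mouse 2 was not tested.

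**Figure D3:**
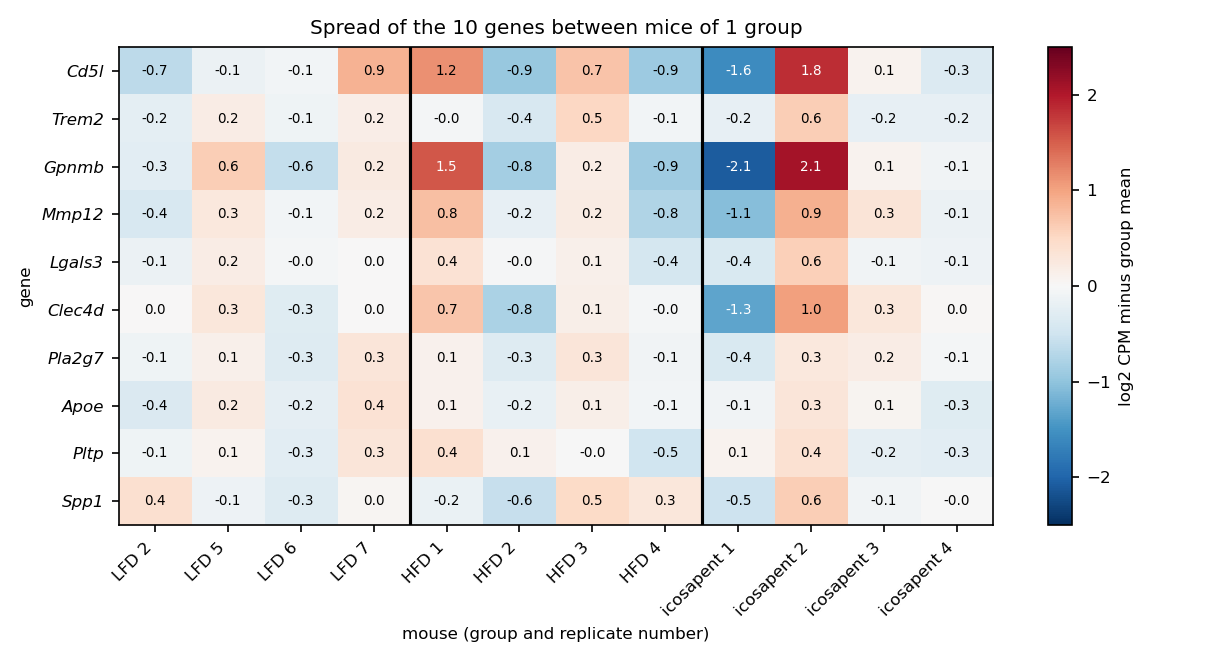
Deviation of each mouse (columns) from its group mean in log2 CPM for the 10 genes (rows), with red above and blue below the mean. Icosapent ethyl–treated mouse 2 is above its group mean in each row, and mouse 1 is below it for all genes but Pltp.

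Over the 45 pairs of the 10 genes, Pearson's r of these deviations across the 12 mice ranged from -0.0123 to 0.943 with a median of 0.656. The 36 pairs without *Spp1* had a median of 0.731, and the 9 pairs with *Spp1* a median of 0.525. All points come from the same 12 libraries, so depth and tissue composition are shared between genes. Without icosapent ethyl–treated mice 1 and 2 the median was 0.58 over 10 mice, and 42 of the 45 pairs were above 0.

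The genes most like *Cd5l* in this measure, out of 13459 genes, were *Atp6v0d2*, a lysosomal proton pump subunit (0.947), *Adam8*, a membrane metalloprotease of myeloid cells (0.935), *Il1rn*, the interleukin-1 receptor antagonist (0.924), and its fellow members *Mmp12* (0.921) and *Gpnmb* (0.912). For *Mmp12* they were *Gpnmb* (0.943), *Atp6v0d2* (0.942), ENSMUSG00000062593 (named *Gm49339* in GENCODE M21, 0.942), *Lgals3* (0.930), and *Cd5l* (0.921). *Apoe* was most like the macrophage genes *Lyz2*, lysozyme (0.924), and *Pirb*, an inhibitory receptor (0.917), followed by the complement gene *C1qc* (0.889), *Pik3r5* (0.878), and *Ly9* (0.874). The 5 genes most like *Spp1* held no other gene of the 10 and were *Zfp51* (0.886), *Guca1b* (0.884), *Siah1a* (0.884), *Gpx3* (0.874), and *Ppwd1* (0.857). These are Pearson coefficients over 12 mice and are given as a description.

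Genes that act with the 10 were counted in the same fits, from lists that were written with earlier results of these data known. In HFD versus LFD mice, edgeR called 0.471% of all genes lower and 0.974% higher. DESeq2 called 6.22% lower and 6.12% higher. With edgeR fitted to the 2 groups compared, no gene of any list passed the adjusted test in either comparison of icosapent ethyl–treated mice, and with all 12 mice in 1 fit 1 of the other genes linked to lipid-associated macrophages was called lower against LFD mice. DESeq2 called genes of 5 lists against LFD mice, among them 5 macrophage markers (all lower, against 1.29% of all genes), and of no list against HFD mice. Of 12 genes that signal below TREM2 and CLEC4D, 2 were lower in HFD mice and none was higher, and the median over the 12 was -0.341. They were *Tyrobp*, the DAP12 adaptor (-0.87 ± 0.103, edgeR adjusted p = 0.0293), and *Fcer1g*, the Fc receptor gamma chain (-0.67 ± 0.120, adjusted p = 0.0418). The adaptor *Bcl10* (-0.025 ± 0.132) and the lipid phosphatase *Inpp5d* (-0.065 ± 0.180) had differences within their SE.

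Of 12 genes of the LXR axis, the sterol-sensing nuclear receptors and their targets, edgeR called 1 lower and 1 higher in HFD mice, with a median of -0.0299, and DESeq2 called 4 lower and 1 higher. *Abcg1*, a cholesterol exporter, was lower (-0.92 ± 0.148, edgeR adjusted p = 0.0384), and *Npc1*, which releases cholesterol from lysosomes, was higher (0.70 ± 0.124, adjusted p = 0.0408), and both were named after their values were seen. *Abca1*, a second cholesterol exporter, had a log2 fold change of -0.82 ± 0.170 and did not pass with edgeR (adjusted p = 0.0551). *Scd1*, a fatty acid desaturase, also did not pass (-0.61 ± 0.156, adjusted p = 0.0760). DESeq2 called *Abca1* (0.00190), *Scd1* (0.0200), and *Mylip*, which marks the LDL receptor for degradation (0.0133), lower as well, with the adjusted p in parentheses, and *Mylip* was named after its values were seen. *Scd2* (0.0048 ± 0.0850) and *Srebf1* (-0.23 ± 0.139) were nearer to 0.

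Of 16 receptors, inhibitors, and substrates of the secreted members, none was lower and 2 were higher, with a median of 0.176. These were *Cd44*, the hyaluronan receptor that binds osteopontin (1.45 ± 0.271, edgeR adjusted p = 0.0450), and *Timp4*, a metalloprotease inhibitor expressed near 1 CPM (1.60 ± 0.263, adjusted p = 0.0395), and both were named after their values were seen. The HDL receptor *Scarb1* had a log2 fold change of 0.85 ± 0.353 and did not pass (adjusted p = 0.181). *Timp3*, *Itgb5*, and *Itgb1* lay between 0.13 and 0.17.

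Of 28 other genes linked to lipid-associated macrophages, 2 were lower in HFD mice and 1 was higher, with a median of -0.246. The fatty acid binding protein *Fabp5* (-1.43 ± 0.253, edgeR adjusted p = 0.0408) was one of those that were lower. *Plin2*, which coats lipid droplets also in steroidogenic cells, was higher (0.49 ± 0.0818, adjusted p = 0.0398), and both were named after their values were seen. The 4 most abundant genes of the list, the broadly expressed lysosomal genes *Ctsb* (0.25 ± 0.155), *Psap* (0.036 ± 0.129), *Cd63* (-0.061 ± 0.119), and *Ctsd* (-0.13 ± 0.107), did not pass with either tool. In icosapent ethyl–treated versus LFD mice, 13 of the 28 genes were lower and 1 higher at an unadjusted p below 0.05, with a median of -0.35, whereas 6.67% of all genes were lower and 7.29% higher at this threshold.

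Markers of macrophages as a whole were 12 genes, of which 4 were lower in HFD mice and none higher, with a median of -0.436. They were the complement genes *C1qa* (-0.74 ± 0.111, edgeR adjusted p = 0.0376) and *C1qc* (-0.80 ± 0.117, adjusted p = 0.0376), the lysosomal *Cd68* (-1.25 ± 0.173, adjusted p = 0.0376), and *Aif1* (-0.79 ± 0.157, adjusted p = 0.0497), the last 2 named after their values were seen. *Csf1r*, the receptor for the growth factor of macrophages, had a log2 fold change of -0.11 ± 0.121. Log2 fold changes were above 0 for 3 of the 12, *Mrc1* (0.24 ± 0.203), *Mertk* (0.22 ± 0.203), and *Cd163* (0.12 ± 0.350), and none of these passed with either tool. Their summed level was 473 to 675 CPM in LFD mice, 371 to 429.8 CPM in HFD mice, and 386 to 406 CPM in icosapent ethyl–treated mice, and both HFD groups lay below the LFD mice. Most of this sum came from *C1qa*, *C1qb*, and *C1qc*, with means of 374 CPM in LFD mice, 228 CPM in HFD mice, and 240.1 CPM in icosapent ethyl–treated mice. The other 9 markers summed to 159 to 237 CPM, 155 to 176 CPM, and 148 to 162 CPM in the same order, so that both HFD groups overlapped with LFD mice, a split that was made after the values were seen. The summed level of the 10 genes was 1572 to 2458 CPM, 846 to 1089 CPM, and 999.9 to 1602 CPM in the same order. Against LFD mice, 6 of the 12 macrophage markers were lower in icosapent ethyl–treated mice at an unadjusted p below 0.05, as were 6.67% of all genes, and the median of the 12 was -0.475. The part of the macrophage markers in the lower levels of the 10 genes was not tested.

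Of 9 markers of resident macrophages, 5 had enough reads to be tested and none passed in any comparison with edgeR fitted to the 2 groups compared, with a median of -0.0372 in HFD versus LFD mice. *Timd4*, *Vsig4*, *Marco*, and *Clec4f* were at or near 0, up to 0.341 CPM. *Hmox1*, a heme-degrading enzyme that many cells induce, had a log2 fold change of 1.43 ± 0.389 (edgeR adjusted p = 0.0844) and the iron exporter *Slc40a1* of -0.74 ± 0.241 (adjusted p = 0.117). DESeq2 called *Hmox1* higher (adjusted p = 0.00619) and *Slc40a1* lower (adjusted p = 0.0404), and edgeR without HFD mouse 1 called 1 resident marker higher and 1 lower. Monocyte and neutrophil markers (7 of 8 tested, *Ly6g* at or near 0) summed to 19.9 to 26.9 CPM in LFD mice and 21.7 to 30.3 CPM in HFD mice, and their median difference was -0.0171 log2 units. Lymphocyte markers (9 genes) summed to 6.96 to 8.22 and 4.88 to 8.25 CPM, with a median of -0.261. No monocyte, neutrophil, or lymphocyte marker passed the adjusted test with edgeR or DESeq2.

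The 7 chromaffin markers had log2 fold changes below 0 in HFD versus LFD mice, with a median of -1.27. None passed with edgeR, and DESeq2 called 3 of them lower, *Chga* (adjusted p = 0.0353), *Chgb* (0.0493), and *Slc18a1* (0.0397), the last of which was named after its values were seen. *Chga*, which encodes a protein of secretory granules, had a log2 fold change of -1.41 ± 0.520 (edgeR adjusted p = 0.148) and *Th*, the first enzyme of catecholamine synthesis, of -1.02 ± 0.493 (adjusted p = 0.234). Their summed levels overlapped between the groups, at 4907 to 17747 CPM in LFD mice, 2448 to 7935 CPM in HFD mice, and 4396 to 8587 CPM in icosapent ethyl–treated mice. Adipocyte markers (8 genes, median 0.46), adrenal cortex markers (8 genes, median 0.357), and endothelial markers (6 genes, median -0.00563) had no gene past the threshold with edgeR fitted to the 2 groups. DESeq2 called the adipocyte genes *Lep* and *Cidec* higher and *Cfd* lower, and the cortical *Cyp11b1* higher, and *Lep*, *Cfd*, and *Cyp11b1* were named after their values were seen. EdgeR called 1 adipocyte marker higher with all 12 mice in 1 fit and without LFD mouse 2, and 1 cortical marker higher without HFD mouse 1. The part of the medulla in the lower levels of the 10 genes was not tested.

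The calls among these lists were lost when some of the libraries were left out. Over all genes, 230 were called in HFD versus LFD mice with edgeR, and none was called when HFD mouse 2, 3, or 4 or LFD mouse 5, 6, or 7 was left out, so that every list lost its calls in these 6 fits. Without HFD mouse 1, 918 genes were called, and without LFD mouse 2, 78 genes were called. In those fits the macrophage markers had 4 calls each, all lower, and the signaling genes had 2 and 1. DESeq2 called 1965 genes (12.3%), among them 5 macrophage markers (all lower), 13 of the other genes linked to lipid-associated macrophages (11 lower and 2 higher), 2 signaling genes (both lower), and 2 receptors or inhibitors (both higher), beside the LXR axis, resident macrophage, chromaffin, adipocyte, and cortical genes given above.

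**Figure D4:**
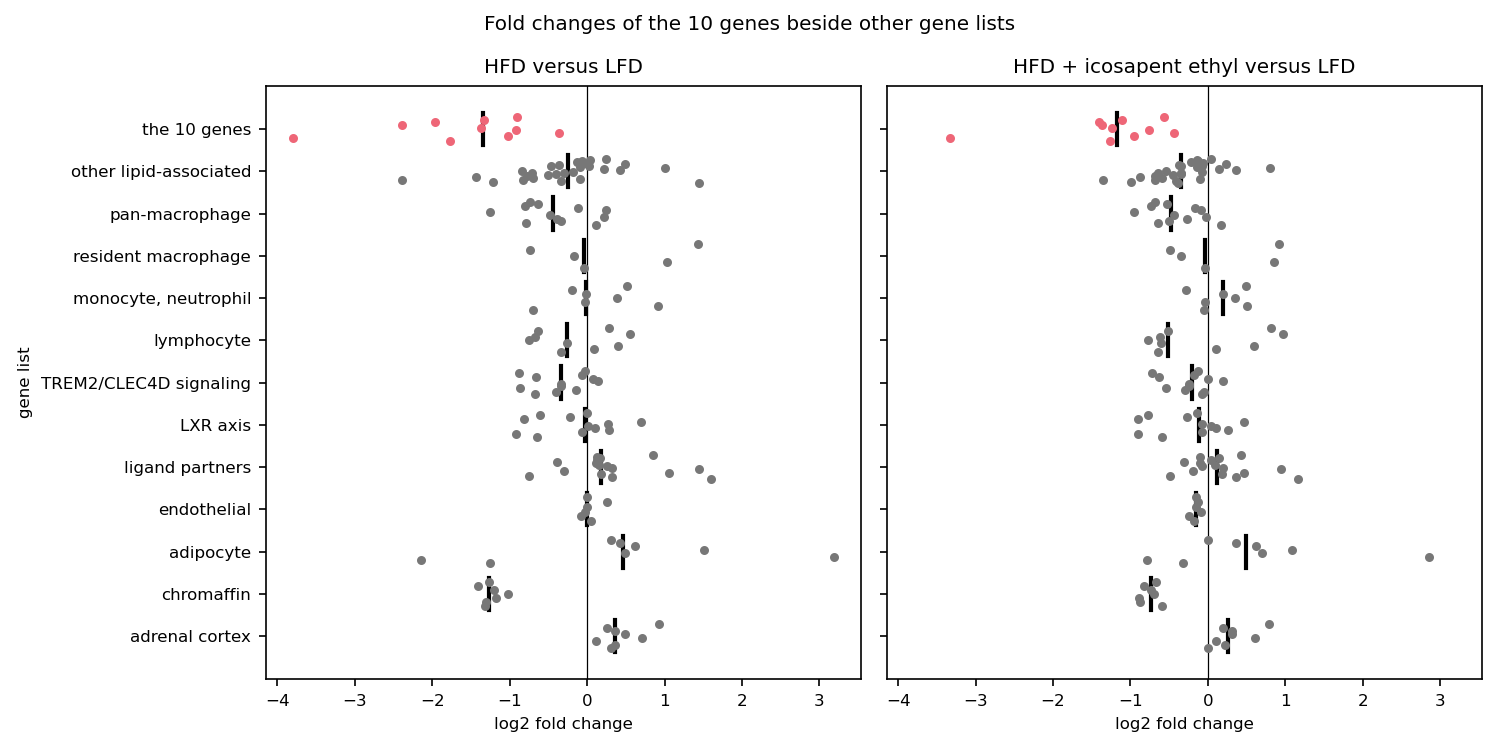
Log2 fold changes (horizontal axes) of the 10 genes (red) and of the genes of 12 other lists (gray), with the median of each list as a black line, for HFD versus LFD mice (left) and icosapent ethyl–treated versus LFD mice (right). The medians of the 10 genes are -1.35 and -1.17, and those of the macrophage markers are -0.436 and -0.475.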

How the data were processed

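The deposited files hold unnormalized counts of reads over genes, 1 file per library. Per the methods of the study and its processing notes, strand-specific reads were trimmed with cutadapt, aligned to GRCm38 with STAR, and counted on GENCODE M12 genes with HTSeq 0.6.1p1 (reverse strand, union mode). Gene names and coordinates were taken from GENCODE M21 and promoter sequences from RefSeq. Groups were taken from the labels, and no source says that libraries of a group differ by more than the mouse, so p-values measure the spread between these libraries.

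The robust quasi-likelihood model of edgeR 4.0.16 (R 4.3.3) was fitted to the mice of each pair of groups without covariates, after filterByExpr (minimum count 10) and TMM scaling. Two-sided p-values were adjusted over all genes tested (Benjamini-Hochberg, threshold 0.05). Fold changes are given as log2 ± SE, and confidence intervals at 95% use the moderated degrees of freedom. CPM were scaled by TMM over all 12 mice. Deviations and correlations used log2 CPM with a prior count of 2.

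The 10 genes and all lists were chosen with earlier results of these data known. The text names the 10 genes, the 4 genes with the highest mean CPM of a list where their values are given, genes past the threshold where a count was 5 or fewer, and the 5 genes with the highest r for *Cd5l*, *Mmp12*, *Apoe*, and *Spp1* (mean of at least 1 CPM). The values of 1 gene past the threshold are not reported here.

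HFD and icosapent ethyl–treated mice are both numbered 1 to 4. Over 13460 genes, mice with the same number deviated from the means of their groups with correlations of 0.328, 0.138, 0.419, and 0.784. All were above 0.1, so that the number was used as a block in an alternative. Unlike numbers also correlated, at 0.706 for HFD mouse 1 and icosapent ethyl–treated mouse 2, 0.584 for HFD mouse 2 and treated mouse 1, and 0.438 for HFD mouse 3 and treated mouse 4. The other unlike pairs were negative, down to -0.746. The correlations therefore do not show that the number marks a pair. No source says what the numbers mean. LFD mice share the number 2 alone, so no block was fitted for them.

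Alternatives were the Wald test of DESeq2 1.42.0, the size factors of DESeq2 in edgeR, unscaled library totals, no low-count filter, a filter of 10 counts in each mouse, 1 fit for all 12 mice, each mouse left out in turn, and the replicate block. The correlations without icosapent ethyl–treated mice 1 and 2 were added after the data were seen. Each of the 10 genes had 25 reads or more in every mouse. The fit was also run on simulated counts for HFD versus LFD mice, with the same dispersion for every gene. Of 200 genes changed 2-fold, 145 (72.5%) were recovered, and 15 unchanged genes were called. Protein sequences were not used here.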

Additional observations from a re-analysis of the deposited data

Results flagged for a closer look

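*Trem2* in icosapent ethyl–treated mouse 2 was measured at 14.6 CPM, whereas the other 3 mice of the group had 8.22, 8.26, and 8.31 CPM. By Dixon's test at the 95% level (critical value 0.829 for 4 samples), it stood apart from its group. Of 30 groups tested (10 genes in 3 groups), 1 stood apart, and chance flags about 1 in 20 groups. The same mouse was the highest of its group for 10 of 10 genes and had the fewest reads of the 12 libraries, and the part of the depth in this value was not tested.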

How the results depend on the processing

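In icosapent ethyl–treated versus LFD mice, 0 of the 10 genes were called with edgeR. DESeq2 called 6 of them lower, and 1.29% of all genes. These LFD mice are those of the contrast the genes were selected on. Leaving out each mouse in turn gave 0 to 1 calls, the 1 being *Lgals3* without icosapent ethyl–treated mouse 2. The other 5 alternatives of this comparison gave 0 calls, and all 10 log2 fold changes were below 0 in each of the 14 alternatives. In icosapent ethyl–treated versus HFD mice, 0 of the 10 genes were called under each of the 15 alternatives. With the replicate number as a block, 0 were called, the median log2 fold change was 0.232, and 9 of 10 were above 0, so that this block changed no call. Over all genes, calls in HFD versus LFD mice went from 230 to 1965 with DESeq2, 84 with library totals without scaling, 556 with all 12 mice in 1 fit, and 0 to 918 with each mouse left out. Calls in icosapent ethyl–treated versus LFD mice went from 0 to 417 with DESeq2, 2 with all 12 mice in 1 fit, and 1 without icosapent ethyl–treated mouse 2, and in icosapent ethyl–treated versus HFD mice from 0 to 7 with DESeq2. The cause of these differences was not tested. Library totals without scaling moved the median of all genes in HFD versus LFD mice from -0.0148 to -0.114, and that of the LXR axis genes from -0.0299 to -0.127. *Clec4d* and *Cd5l* had the fewest reads (30 and 25 in the lowest mouse), so that counting error adds the most to their values.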

Other observations

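*Atp6v0d2* and *Il1rn*, a lysosomal proton pump subunit and the interleukin-1 receptor antagonist, were the list genes whose deviations within groups were most like those of *Cd5l*. *Atp6v0d2* had a mean of 10.8 ± 2.91 CPM in LFD mice, 2.07 ± 1.49 CPM in HFD mice, and 4.24 ± 4.45 CPM in icosapent ethyl–treated mice (SD, n = 4 each), and its log2 fold change in HFD versus LFD mice was -2.39 ± 0.498 with an edgeR adjusted p of 0.0553. *Il1rn* had 2.66 ± 0.420 CPM, 1.14 ± 0.554 CPM, and 1.34 ± 0.804 CPM in the same order, with a log2 fold change of -1.22 ± 0.353 and an adjusted p of 0.0921. Both were named for their likeness to *Cd5l*, after their values were seen.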
